A study of Mus musculus with 12 samples.

Results

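The genes described here were 30 genes of cholesterol synthesis and sterol handling, picked by symbol from the 22456 genes of an expression table and followed gene by gene in mouse liver. They comprised 19 enzymes of the route from acetyl-CoA to cholesterol and its isoprenoid branch, 3 genes of the sterol sensing machinery, 4 other genes known as targets of SREBP-2, and 4 genes of sterol export and storage. RNA-Seq had been performed on liver of male BALB/cByJ mice aged 2 to 8 months, either Lpin1-/- (FLD, the fatty liver dystrophy mutation, lacking the phosphatidic acid phosphatase and coregulator lipin 1 in every tissue) or wild-type littermates (Lpin1+/+). All mice were singly caged and fasted for 16 hours overnight, and the refed mice were then given chow for 5 hours, so each refed liver was also taken later in the day and feeding and time of day cannot be told apart. There were 3 mice in each of the 4 groups, and expression was given as RPKM (read counts scaled to the length of the transcript and to the depth of the library), a level per length that allows genes to be set side by side.

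Cholesterol is made in the cytosol and endoplasmic reticulum through mevalonate, farnesyl diphosphate, squalene and lanosterol, and the liver is a major site of its synthesis and the main site of its disposal. The transcription factor SREBP-2 (gene Srebf2) drives nearly all of these enzymes. It is made as a membrane protein that the escort protein SCAP carries to the Golgi for cleavage when sterols are scarce, whereas INSIG1 and INSIG2 hold SCAP in the endoplasmic reticulum when sterols are plentiful. Insig1 is itself an SREBP target, and the hepatic form of the Insig2 transcript is known to rise in fasting and to be lowered by insulin. Export genes such as Abca1, Abcg5 and Abcg8 are driven by the oxysterol receptor LXR, and SOAT2 esterifies cholesterol for storage and secretion.

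Before the sterol genes were compared, the libraries were checked against their labels. Lpin1 was listed at 22.0, 0.726 and 1.76 RPKM in fasted Lpin1+/+ liver and at 2.92, 0.784 and 2.76 RPKM in refed Lpin1+/+ liver, against 0.0597, 0.0566 and 0.0368 RPKM in fasted and 0.00573, 0.0238 and 0.00962 RPKM in refed Lpin1-/- liver, so every library matched its genotype label. Hepatocyte markers, Alb among them, were high in every library, with summed levels of 41928 to 91998 RPKM over 8 genes. Some libraries stood apart. Fasted Lpin1-/- replicate 1 had the highest summed macrophage markers of any library (801 RPKM over 7 genes, against 401 and 298 RPKM in the other fasted Lpin1-/- libraries) and the highest cholangiocyte markers (451 RPKM over 5 genes, against 57.0 and 24.9 RPKM), and refed Lpin1+/+ replicate 2 had macrophage markers of 704 RPKM, against 140 and 85.3 RPKM in its group. Refed Lpin1+/+ replicate 2 also had the lowest Alb of any library (11777 RPKM). In fasted Lpin1+/+ replicate 1, Lpin1 itself, Tat (1754 RPKM) and Cps1 (1339.8 RPKM) were several times higher than in the other libraries of its group. Some sums also differed by genotype in fasted liver. Stellate cell and fibroblast markers summed to 202 to 298 RPKM over 6 genes in fasted Lpin1-/- and 72.4 to 165 RPKM in fasted Lpin1+/+ liver without overlap. Most of that sum was Dcn (264, 179 and 240 RPKM, against 140, 61.8 and 144 RPKM). Des was also higher without overlap, whereas Lrat, Rgs5, Col1a1 and Col3a1 overlapped. Macrophage markers had a median of 401 RPKM (298 to 801) against 203 RPKM (153 to 311). Lymphocyte and neutrophil markers had 110 RPKM (51.1 to 175) against 16.3 RPKM (11.7 to 121), mostly S100a8 and S100a9, and each of those 6 genes overlapped. In refed liver, cholangiocyte markers summed to 19.2 to 27.8 RPKM in Lpin1-/- and 31.6 to 103 RPKM in Lpin1+/+ liver, without overlap. Spp1 and Krt19 did not overlap either, whereas Krt7, Epcam and Sox9 did. Macrophage markers summed to 91.3 to 222 RPKM in refed Lpin1-/- liver, below its fasted range. Clec4f, C1qa, C1qb and Vsig4 were all lower there without overlap, whereas Adgre1, Cd5l and Marco overlapped. The part of these markers in the genotype and feeding differences was not tested. No defining marker of these cell types was listed at 0, and because these are whole-liver samples, fewer cells of a type and less RNA per cell cannot be told apart. Rescaling each library by its median ratio shifted the median change over all 11507 genes tested from 0.19 to 0.02 for refeeding in Lpin1+/+, from 0.25 to −0.03 for refeeding in Lpin1-/- and from −0.14 to 0.01 for genotype in fasted liver. The split of all calls moved with it, from 175 higher and 23 lower to 48 and 28, from 2046 and 336 to 1024 and 706, and from 648 and 1520 to 1059 and 1199, and for genotype in refed liver from 299 and 468 to 414 and 414.

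The letters that SREBP-2 and its partners are known to recognise were looked for in the promoters of these genes (RefSeq, GRCm38.p6, 250 bases before to 50 bases after each start). Promoters were at hand for 25 of the 30 genes; Fdps, Fdft1, Sqle, Stard4 and Soat2 had no entry. The sterol regulatory element, spelled TCACNCCAC and searched on both strands, was found in 1 of the 25 (4% of them, against 1.44% of 27025 genes), which was Hmgcs1. A shorter spelling contained within it, CACNCCAC, was found in 3 of the 25 (12%, against 7.12%), which were Hmgcs1, Insig1 and Acat2. The NF-Y box CCAAT was found in 21 (84%, against 41.1%), the Sp1 box GGGCGG in 20 (80%, against 38.2%) and the E-box CACGTG in 6 (24%, against 8.09%). A match is a run of letters and not a site, and no match says only that these letters were not in this window. The stretches around the matches to either spelling are shown because these are the letters through which sterols are known to act, and the capitals mark the matches of the sterol regulatory element, its shorter spelling and the NF-Y box.
Hmgcs1, chr13:119690155-119690282, plus strand: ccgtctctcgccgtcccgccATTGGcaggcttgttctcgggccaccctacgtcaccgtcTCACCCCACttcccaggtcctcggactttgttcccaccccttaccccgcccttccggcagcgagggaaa
Insig1, chr5:28071343-28071461, plus strand: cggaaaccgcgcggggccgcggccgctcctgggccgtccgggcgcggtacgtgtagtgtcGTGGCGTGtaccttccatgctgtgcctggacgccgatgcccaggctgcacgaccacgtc
Acat2, chr17:12960711-12960966, minus strand: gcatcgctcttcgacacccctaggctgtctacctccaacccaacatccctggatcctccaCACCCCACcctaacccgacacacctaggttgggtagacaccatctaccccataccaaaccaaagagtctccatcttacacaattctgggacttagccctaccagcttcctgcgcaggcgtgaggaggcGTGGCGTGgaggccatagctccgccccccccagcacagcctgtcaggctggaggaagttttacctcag
The Hmgcs1 stretch lies 196 to 69 bases before the start and holds an NF-Y box near the full element, whereas the short match of Insig1 reads on the opposite strand, 9 bases before the RefSeq start that these windows are counted from, which lies downstream of the GENCODE start of the gene given with its values. Mvk and Mmab, which are transcribed away from each other, share the 208 bases between their annotated starts. That stretch, chosen for display after the values were seen, holds 5 NF-Y boxes and 1 Sp1 box, here in capitals, and neither spelling of the sterol element.
Mmab and Mvk, chr5:114444061-114444268, plus strand: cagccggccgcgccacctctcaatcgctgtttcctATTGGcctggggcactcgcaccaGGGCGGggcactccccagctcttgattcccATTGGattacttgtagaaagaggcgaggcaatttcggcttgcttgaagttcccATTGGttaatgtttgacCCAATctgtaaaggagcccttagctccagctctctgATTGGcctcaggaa

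Refeeding raised many of the synthesis genes in Lpin1+/+ liver, Insig1 fell in Lpin1-/- liver from a high fasted level, and for 6 genes the responses of the genotypes differed by test. The heat map of all 30 genes by library shows a block of high values in the 3 refed Lpin1+/+ libraries that spans most enzymes, Srebf2, Insig1, Stard4 and Mmab and leaves out the export and storage genes.

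**Figure D1:**
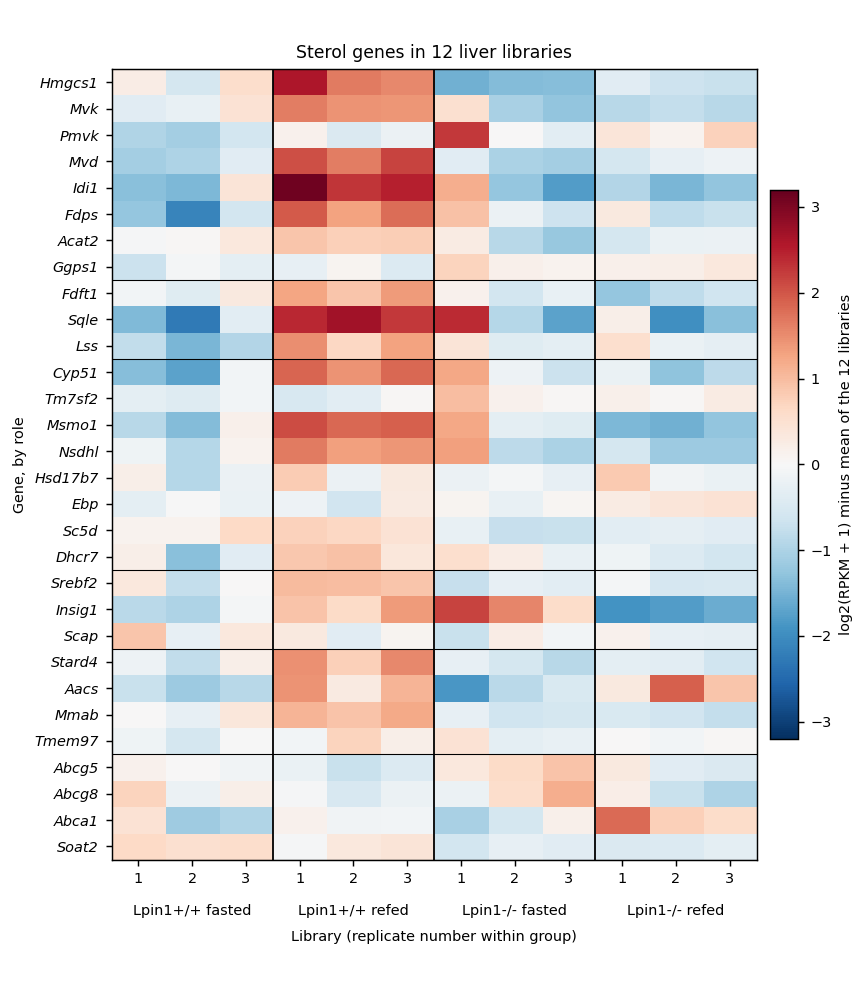
Each cell is log2(RPKM + 1) of 1 gene in 1 liver library minus that gene's mean over the 12 libraries, with genes grouped by role (thin lines) and libraries by group (thick lines). The 3 refed Lpin1+/+ libraries are the highest for Idi1 (29.9 to 53.6 RPKM) and Msmo1 (89.7 to 106 RPKM), and fasted Lpin1-/- replicate 1 stands above the rest of its group for Pmvk and Sqle.

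In Lpin1+/+ liver, 10 of the 30 genes rose on refeeding and the other 20 did not pass the test (limma on log2(RPKM + 1), Benjamini-Hochberg adjusted over all 11507 genes), against 1.52% of all genes tested that rose and 0.2% that fell. The 10 were Hmgcs1, Mvd, Idi1, Fdps, Fdft1, Lss, Cyp51, Msmo1, Stard4 and Mmab. Of the 19 enzymes 8 rose, and all 19 had a fold change above 0. The median log2 fold change of the 30 genes was 1.16, against 0.19 for all genes. The largest values were those of Sqle (3.79 ± 0.91 SE, adjusted p = 0.0674, not called) and Idi1 (3.42 ± 0.68, adjusted p = 0.0307). This count rested on few libraries: 15 genes rose without fasted Lpin1-/- replicate 1, 1 without fasted Lpin1+/+ replicate 2, 2 without refed Lpin1+/+ replicate 1 or 3, 6 without refed Lpin1-/- replicate 2 or 3, 6 with no filter on low values, 5 after rescaling, and none in a limma fit to the 6 Lpin1+/+ libraries alone, where the lowest adjusted p was 0.0705 and 19 of the 30 had an unadjusted p under 0.05. Mvd passed in every other setting, whereas Idi1 and Fdft1 passed in 8 of 19 and Mmab in 8 of 18.

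In Lpin1-/- liver, refeeding raised 2 of the 30 genes and lowered 3, where 17.8% of all genes tested rose and 2.92% fell. Aacs and Abca1 rose, and Msmo1, Insig1 and Abcg5 fell. Among the 19 synthesis enzymes Msmo1 was the only gene to pass in this fit, and it fell. The median log2 fold change of the 30 genes was −0.12, against 0.25 for all genes, and it was 0.17 without fasted Lpin1-/- replicate 1, when Aacs and Acat2 rose and Insig1, Abcg5 and Abcg8 fell. After rescaling, 1 gene (Aacs) was higher and 5 were lower. Aacs and Insig1 passed in each of the 19 alternative settings, and 3 genes in all passed without fasted Lpin1-/- replicate 2 or refed Lpin1-/- replicate 3 and 2 without refed Lpin1-/- replicate 2.

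The difference between the feeding responses was itself tested. The response of Lpin1-/- liver was below that of Lpin1+/+ liver for 6 of the 30 genes, against 0.487% of all genes tested in that direction and 0.791% in the other. They were Insig1 (−4.81 ± 0.53, adjusted p = 0.00332), Msmo1 (−4.23 ± 0.61, adjusted p = 0.0102), Cyp51 (−3.66 ± 0.72, adjusted p = 0.0338), Fdps (−3.43 ± 0.67, adjusted p = 0.0336), Mvd (−2.28 ± 0.37, adjusted p = 0.019) and Fdft1 (−1.88 ± 0.36, adjusted p = 0.0325), all as log2 differences. Insig1 and Msmo1 passed in each of the 18 alternatives, Mvd in 15, Fdft1 in 11, Fdps in 9 and Cyp51 in 8. Without fasted Lpin1-/- replicate 1 the list was Insig1 (−4.44), Msmo1 (−3.71) and Mvd (−2.05), and the count was also 2 or 3 without refed Lpin1+/+ replicate 1 or 3 or refed Lpin1-/- replicate 2 or 3. The difference for Sqle was of the same size (−4.75 ± 1.28) with an adjusted p of 0.0956, and that for Idi1 (−4.03 ± 0.96) had 0.0666.

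**Figure D2:**
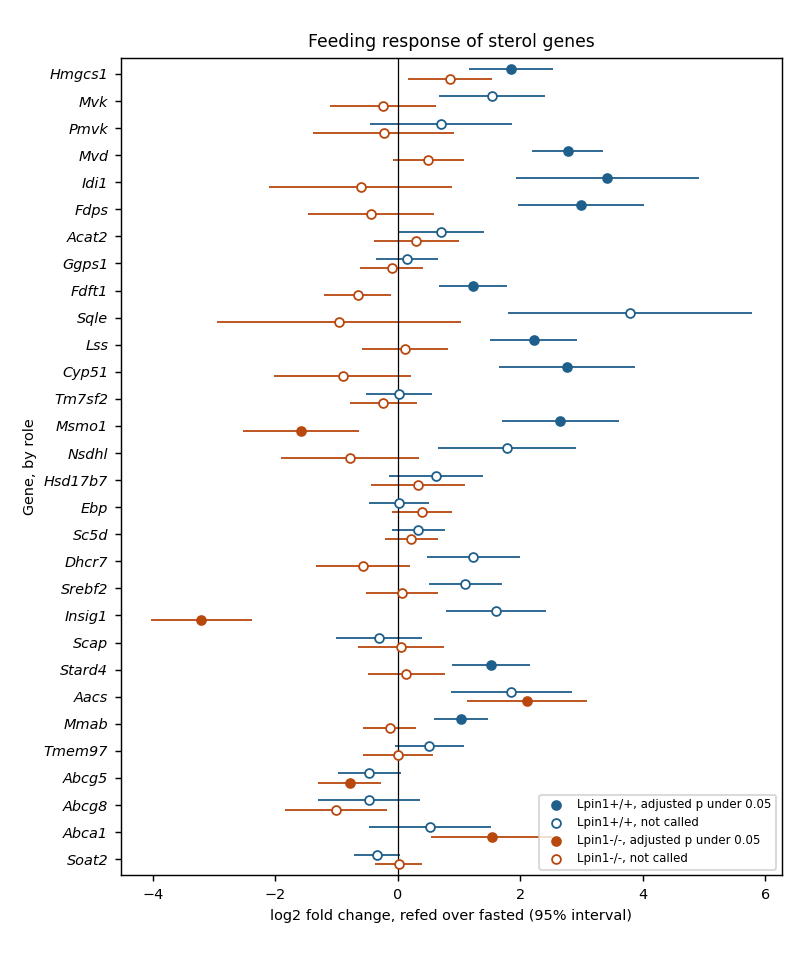
Points are log2 fold changes of refed over fasted liver on the log2(RPKM + 1) scale for the 30 genes, with 95% intervals from the limma fit, in Lpin1+/+ (blue) and Lpin1-/- (orange), and filled points passed the test. The blue and orange intervals lie apart for Insig1, Msmo1, Cyp51, Fdps, Mvd and Fdft1 among others, and overlap for Aacs, Ebp, Sc5d and the export and storage genes.

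Set against wild type, refed Lpin1-/- liver was lower for 15 of the 30 genes, against 4.07% of all genes tested that were lower and 2.6% that were higher. The 15 were Hmgcs1, Mvk, Mvd, Idi1, Fdps, Fdft1, Sqle, Cyp51, Msmo1, Nsdhl, Sc5d, Srebf2, Insig1, Stard4 and Mmab, and 11 of them are synthesis enzymes. The median log2 fold change of the 30 genes was −1.13, against −0.07 for all genes. The count was 9 without refed Lpin1+/+ replicate 1 or refed Lpin1-/- replicate 2 or 3 and 18 without fasted Lpin1-/- replicate 1. Hmgcs1, Mvk, Mvd, Idi1, Fdft1, Msmo1, Insig1 and Stard4 passed in each of the 19 alternatives, and Mmab in each of its 18, whereas Fdps, Cyp51, Nsdhl, Sc5d and Srebf2 passed in 14 to 16 and Sqle in 8. In fasted liver the same comparison gave 4 calls. Insig1 was higher and Hmgcs1, Sc5d and Soat2 were lower in Lpin1-/-, against 5.63% of all genes tested that were higher and 13.2% that were lower. The median in fasted liver was 0.15 for the 30 genes and −0.14 for all genes, and after rescaling 4 of the 30 were higher (Insig1, Fdps, Lss and Abcg5) and 2 lower (Hmgcs1 and Soat2). Each group enters both a feeding and a genotype comparison, so the comparisons share libraries.

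**Figure D3:**
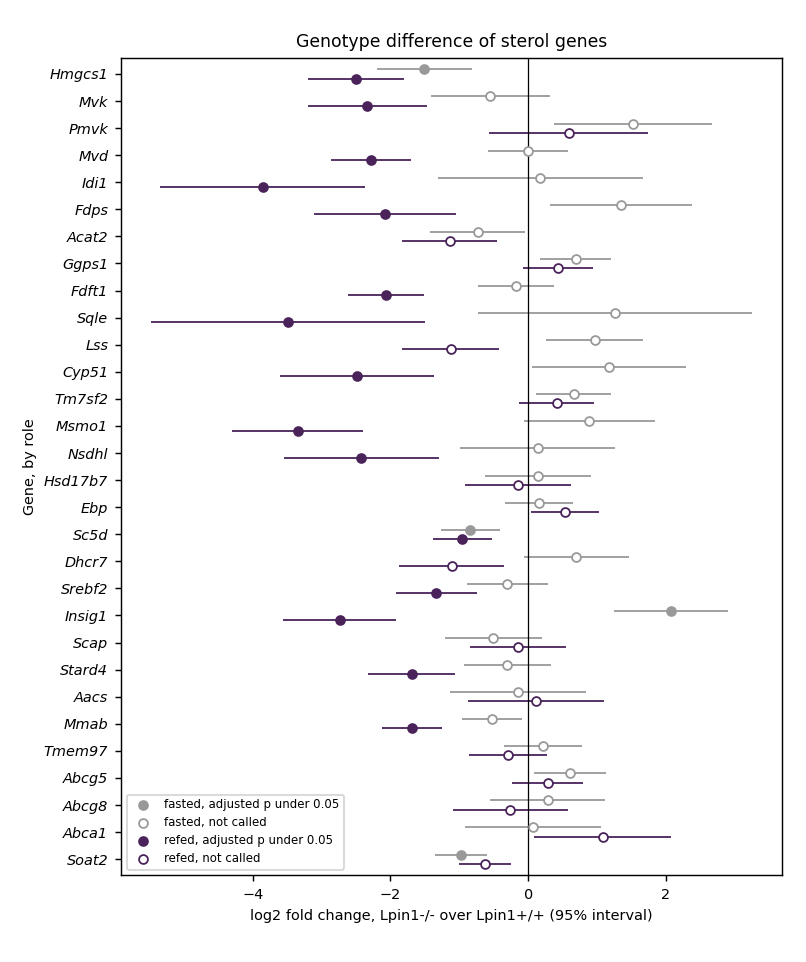
Points are log2 fold changes of Lpin1-/- over Lpin1+/+ liver on the log2(RPKM + 1) scale, with 95% intervals from the limma fit, in fasted (grey) and refed (purple) liver, and filled points passed the test. Most synthesis enzymes lie near or above 0 in fasted liver and well below 0 in refed liver, and Insig1 lies on opposite sides of 0 (2.07 and −2.74).

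The first steps turn acetyl-CoA into mevalonate and then into isoprenoid diphosphates. Hmgcs1 (chromosome 13, 119690379 to 119708260, plus strand), the cytosolic HMG-CoA synthase, measured 23.0, 12.7 and 28.9 RPKM in fasted and 121, 63.1 and 57.7 RPKM in refed Lpin1+/+ liver. Lpin1-/- liver gave 5.96, 6.77 and 6.94 RPKM fasted and 14.9, 11.9 and 11.4 RPKM refed. Every Lpin1-/- library was below every Lpin1+/+ library of the same feeding state. Its genotype difference was −1.51 ± 0.32 fasted (adjusted p = 0.00808) and −2.50 ± 0.32 refed (adjusted p = 0.00187), and it was the only one of the 19 enzymes besides Sc5d to pass in both states. Its response to refeeding did not pass the test of a difference between genotypes (log2 difference −0.99, adjusted p = 0.268). Acat2, the cytosolic acetoacetyl-CoA thiolase that precedes it and that has a close copy in Acat3, ranged from 8.85 to 9.73 RPKM in refed Lpin1+/+ and from 2.90 to 4.09 RPKM in refed Lpin1-/- liver, and the groups did not overlap (log2 fold change −1.14, adjusted p = 0.0552).

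Mevalonate is phosphorylated by the Mvk and Pmvk products and decarboxylated by the Mvd product. Mvk, which shares its promoter region with Mmab, measured 22.7, 19.6 and 19.2 RPKM in refed Lpin1+/+ liver and 3.09, 3.52 and 3.11 RPKM in refed Lpin1-/- liver. In the fasted groups it measured 4.91, 5.46 and 9.49 RPKM in Lpin1+/+ and 9.93, 2.69 and 2.15 RPKM in Lpin1-/-, where replicate 1 was above both others. Mvd (chromosome 8, 122433601 to 122443422, minus strand) gave the lowest adjusted p of the 30 genes for refeeding in Lpin1+/+ liver. It rose from 1.29, 1.45 and 2.78 to 19.3, 14.2 and 20.8 RPKM (2.77 ± 0.27, adjusted p = 0.00356), whereas Lpin1-/- liver measured 2.79, 1.42 and 1.28 RPKM fasted and 2.30, 3.08 and 3.33 RPKM refed. Pmvk differed from its neighbours in the route: it measured 195, 39.9 and 31.5 RPKM in fasted Lpin1-/- liver and 28.5 to 67.2 RPKM in all 6 refed libraries, and it passed no test of expression. The highest of its values came from the fasted Lpin1-/- library with the high macrophage and cholangiocyte markers, whose part in it was not tested.

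Idi1, the isomerase that makes dimethylallyl diphosphate, showed the widest range of the branch. It measured 1.50, 1.31 and 7.39 RPKM in fasted and 53.6, 29.9 and 34.5 RPKM in refed Lpin1+/+ liver. Lpin1-/- liver gave 13.2, 1.69 and 0.825 RPKM fasted and 2.27, 1.30 and 1.63 RPKM refed, so that all 3 refed Lpin1-/- libraries lay over 10-fold below every refed Lpin1+/+ library. The refed genotype difference was −3.85 ± 0.68 (adjusted p = 0.00926). Fdps, farnesyl diphosphate synthase, measured 12.3, 6.28 and 19.8 RPKM in fasted and 121, 75.9 and 107 RPKM in refed Lpin1+/+ liver, and 59.6, 26.6 and 19.0 and 38.2, 17.0 and 18.0 RPKM in the same states of Lpin1-/- liver. Its exons share 1124 bases with an annotated gene on the same strand, Gm43738, so its reads may have been divided or set aside in counting. Ggps1, which makes geranylgeranyl diphosphate for protein prenylation, stayed between 2.45 and 8.24 RPKM in all 12 libraries and passed no test of expression.

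Squalene is made from farnesyl diphosphate by the Fdft1 product, oxidised by the Sqle product and folded into lanosterol by the Lss product. Fdft1 rose in Lpin1+/+ liver from 31.0, 25.1 and 41.2 to 81.3, 62.3 and 86.0 RPKM, and measured 36.3, 21.6 and 28.0 RPKM in fasted and 13.5, 18.5 and 21.0 RPKM in refed Lpin1-/- liver. Its exons overlap those of Ctsb, on the opposite strand, by 774 bases. Sqle, a rate-limiting step (chromosome 15, 59315077 to 59331192, plus strand), measured 1.25, 0.250 and 3.75 RPKM in fasted and 31.1, 37.4 and 27.7 RPKM in refed Lpin1+/+ liver. In Lpin1-/- liver it measured 30.3, 2.18 and 0.832 RPKM fasted and 5.87, 0.542 and 1.36 RPKM refed. The first fasted Lpin1-/- library was thus at the refed wild-type level, and without it the rise in Lpin1+/+ liver passed the test (adjusted p = 0.012) and the refed genotype difference of −3.49 went from an adjusted p of 0.0441 to 0.00732. That refed call passed in only 8 of the 19 alternatives. It was lost after rescaling, with no filter, with 0.1 added to RPKM and without any 1 of the 6 refed libraries, and its adjusted p reached 0.144. Lss rose in Lpin1+/+ liver from 2.95, 1.44 and 2.51 to 18.1, 9.69 and 15.5 RPKM, and measured 7.94, 4.15 and 4.47 RPKM in fasted and 8.86, 4.88 and 4.57 RPKM in refed Lpin1-/- liver.

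**Figure D4:**
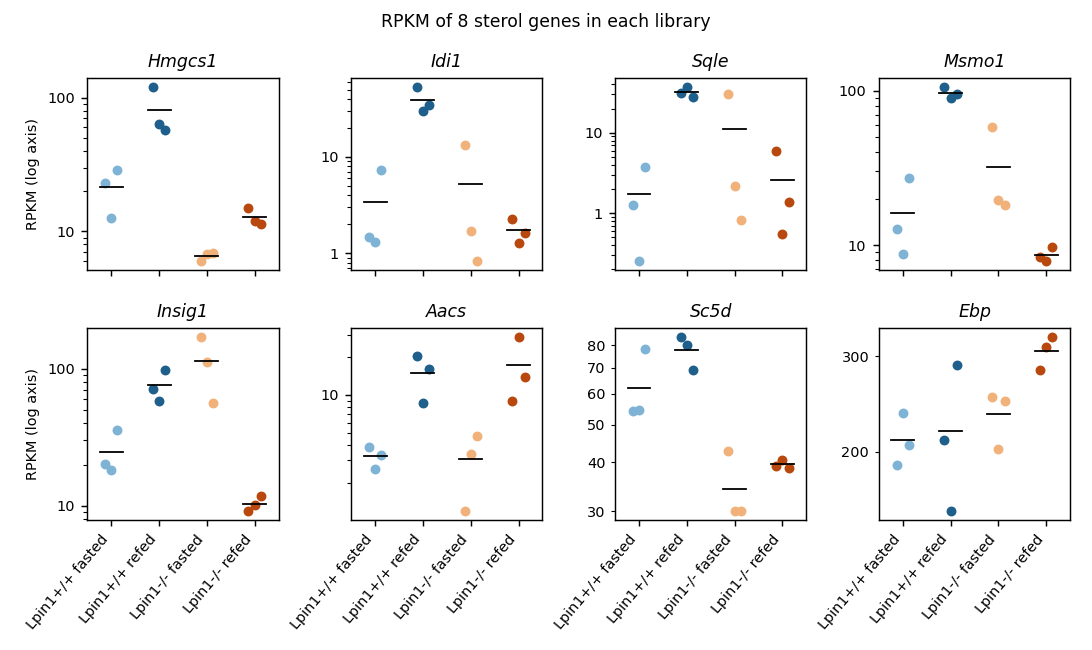
Points are RPKM of single libraries on log axes, and lines are means of 3, for 8 genes in the 4 groups. Hmgcs1, Idi1, Sqle and Msmo1 peak in refed Lpin1+/+ liver, Insig1 falls from 56.4 to 172 RPKM in fasted to 9.13 to 11.7 RPKM in refed Lpin1-/- liver, Aacs is higher in the refed group of both genotypes, Sc5d is lower in Lpin1-/- liver in both states, and Ebp varies little.

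Of the 8 genes from lanosterol to cholesterol, 4 were lower in refed Lpin1-/- liver and the other 4 passed no test of expression. Msmo1 (chromosome 8, 64718139 to 64733792, minus strand), a methylsterol oxidase, measured 12.7, 8.70 and 27.3 RPKM in fasted and 106, 89.7 and 95.1 RPKM in refed Lpin1+/+ liver. In Lpin1-/- liver it measured 58.5, 19.6 and 18.3 RPKM fasted and 8.39, 7.83 and 9.65 RPKM refed. It thus rose in one genotype (limma, 2.65 ± 0.43, adjusted p = 0.0147) and fell in the other (−1.58 ± 0.43, adjusted p = 0.0259). The rise passed in 15 of 19 alternatives and the fall in 14. The fall did not pass without fasted Lpin1-/- replicate 1 (limma, −1.05, adjusted p = 0.082). It was also lost with no filter and without any 1 of the refed Lpin1-/- libraries (limma adjusted p of up to 0.0843). Cyp51, the lanosterol demethylase, measured 45.3, 33.5 and 45.2 RPKM in refed Lpin1+/+ liver and 10.1, 4.25 and 6.21 RPKM in refed Lpin1-/- liver, against 4.00, 2.91 and 11.1 RPKM and 29.1, 10.5 and 6.92 RPKM in the fasted groups. Nsdhl, a sterol decarboxylase, measured 28.3, 22.3 and 23.7 RPKM and 5.36, 3.13 and 3.16 RPKM in the refed groups, which did not overlap.

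Sc5d and Dhcr7 encode a desaturase and a reductase of the late steps. Sc5d measured 54.1, 54.5 and 78.2 RPKM in fasted Lpin1+/+ liver and 42.7, 29.96 and 30.1 RPKM in fasted Lpin1-/- liver. In refed liver it measured 84.3, 80.3 and 69.2 RPKM and 39.3, 40.7 and 38.6 RPKM, so that it was lower in Lpin1-/- by 0.84 fasted and 0.96 refed on the log2 scale (adjusted p = 0.0132 and 0.0168), with no call for feeding in either genotype. The fasted difference passed in 15 of the 19 alternatives and was lost after rescaling. Dhcr7 measured 41.7, 43.7 and 28.9 RPKM in refed Lpin1+/+ and 20.4, 16.2 and 14.5 RPKM in refed Lpin1-/- liver, and did not pass (−1.11, adjusted p = 0.0832). Tm7sf2, Hsd17b7 and Ebp, which encode a sterol reductase, a sterol ketoreductase and a sterol isomerase, passed none of the tests of expression. Ebp had the highest mean level of the 30 genes (243 RPKM over the 12 libraries, range 155 to 326) and its feeding response in Lpin1+/+ liver was 0.01 (95% interval −0.48 to 0.51). Tm7sf2 came next (75.5 RPKM), with a response of 0.01 (95% interval −0.53 to 0.55), and it shares 532 exon bases with Vps51 on the same strand.

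Of the sensing machinery, Insig1 moved most. Insig1 (chromosome 5, 28071363 to 28078662, plus strand) measured 20.2, 18.2 and 36.0 RPKM in fasted and 71.0, 58.0 and 98.2 RPKM in refed Lpin1+/+ liver. In Lpin1-/- liver it measured 172, 113 and 56.4 RPKM fasted and 9.13, 10.1 and 11.7 RPKM refed. Every fasted Lpin1-/- library was above every fasted Lpin1+/+ library, and every refed Lpin1-/- library was below all the others. The fall in Lpin1-/- liver was −3.21 ± 0.38 (adjusted p = 0.000664) and the rise in Lpin1+/+ liver was not called (1.60 ± 0.38, adjusted p = 0.062). The genotype difference was 2.07 ± 0.38 in fasted liver (adjusted p = 0.00382) and −2.74 ± 0.38 in refed liver (adjusted p = 0.0026). Without fasted Lpin1-/- replicate 1, which was its highest library, the fall was −2.84 and the fasted difference 1.71, and both still passed.

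Insig2, the partner gene outside the 30, measured 354, 242 and 146 RPKM in refed Lpin1+/+ liver and 920, 744 and 1065 RPKM in refed Lpin1-/- liver, and was higher in Lpin1-/- by 1.95 ± 0.46 (adjusted p = 0.0293). In fasted liver it measured 540, 505 and 517 RPKM in Lpin1+/+ and 555, 1404 and 2321 RPKM in Lpin1-/-. In refed Lpin1-/- liver Insig2 was therefore high and Insig1 low at the same time. Srebf2 measured 9.01, 3.62 and 6.94 RPKM in fasted and 15.0, 14.6 and 13.6 RPKM in refed Lpin1+/+ liver, and 3.78, 5.60 and 5.21 and 6.53, 4.42 and 4.56 RPKM in the same states of Lpin1-/- liver. The refed groups did not overlap (−1.33 ± 0.27, adjusted p = 0.016), although the rise in Lpin1+/+ liver was not called (1.10, adjusted p = 0.0737). Scap, the escort, ranged from 20.1 to 62.9 RPKM with overlapping groups and passed no test of expression.

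Among the other SREBP-2 targets, Stard4 and Mmab followed the enzymes. Stard4, a carrier of sterols between membranes, measured 5.84, 3.45 and 7.71 RPKM in fasted and 20.2, 12.2 and 21.5 RPKM in refed Lpin1+/+ liver, and 3.17 to 5.45 RPKM in all 6 Lpin1-/- libraries. Mmab, the cobalamin adenosyltransferase that lies head to head with Mvk, measured 2.66, 2.01 and 3.62 RPKM in fasted and 6.63, 5.74 and 7.38 RPKM in refed Lpin1+/+ liver, and 1.12 to 2.01 RPKM in all Lpin1-/- libraries. Its refed genotype difference was −1.69 ± 0.20 (adjusted p = 0.00125), beside −2.34 ± 0.40 for Mvk (adjusted p = 0.00793). Tmem97, a regulator of sterol transport, stayed between 34.7 and 86.2 RPKM and passed no test of expression. Aacs, an acetoacetyl-CoA synthetase that returns ketone bodies to lipid synthesis, rose in Lpin1-/- liver from 1.18, 3.40 and 4.71 to 8.86, 29.2 and 13.8 RPKM (2.11 ± 0.45, adjusted p = 0.00845). In Lpin1+/+ liver it measured 3.86, 2.58 and 3.32 RPKM fasted and 20.4, 8.68 and 16.0 RPKM refed (1.85 ± 0.45, adjusted p = 0.0709), and the difference between the responses was 0.26 (95% interval −1.13 to 1.65).

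Of the 4 export and storage genes, Abcg5 and Abca1 changed on refeeding in Lpin1-/- liver and Soat2 differed between genotypes in fasted liver. None of the 4 passed for refeeding in Lpin1+/+ (limma, and none at an unadjusted p under 0.05 either). Abcg5, which with Abcg8 forms the transporter that secretes sterols into bile, fell in Lpin1-/- liver from 54.5, 66.4 and 82.2 to 54.1, 33.6 and 30.9 RPKM (−0.79 ± 0.24, adjusted p = 0.0364), a call that passed in 10 of 19 alternatives. It was lost with no filter, in the fit to the 6 Lpin1-/- libraries and with 6 of the 12 libraries left out in turn, with an adjusted p of up to 0.131. Abcg8 measured 32.2, 54.1 and 83.6 and 42.4, 21.9 and 17.9 RPKM in the same libraries (−1.02, adjusted p = 0.0784), and the genes, transcribed in opposite directions on chromosome 17, overlap in 82 exon bases. Abca1, which loads cholesterol onto nascent HDL, rose in Lpin1-/- liver from 4.66, 7.0 and 12.1 to 40.2, 18.9 and 16.5 RPKM (limma, 1.53 ± 0.45, adjusted p = 0.0342), a call that passed in 13 of 19 alternatives. It was lost after rescaling, with no filter and without fasted Lpin1-/- replicate 1 (limma adjusted p = 0.129) or 2. The call was also lost without refed Lpin1-/- replicate 1 or 2. In Lpin1+/+ liver Abca1 measured 15.1, 4.28 and 5.03 RPKM fasted and 11.8, 9.84 and 9.96 RPKM refed. Soat2 was lower in fasted Lpin1-/- liver (5.67, 7.45 and 6.77 RPKM, against 14.8, 13.4 and 13.8 RPKM in Lpin1+/+; −0.98 ± 0.17, adjusted p = 0.00333) and passed in each of the 19 alternatives. In refed liver it measured 6.37, 6.48 and 7.14 RPKM, against 8.78, 11.7 and 12.3 RPKM (−0.63, adjusted p = 0.0535).

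Whether exons of these genes were used differently was read from the deposited junction counts of skipped exon events, which set reads that include an exon against reads that skip it. Inclusion is the share of the including form after each count is divided by the length it could come from. In fasted liver, 227 events in 27 of the 30 genes could be tested, and 11 events in 7 genes differed between genotypes (limma on the log ratio, adjusted over 69644 events), against 11.3% of all events tested. In refed liver, 197 events in all 30 genes could be tested and 6 events in 4 genes differed, against 0.97% of all events tested. In most of them the rarer form was scarce, with a mean under 5 counts a library in 9 of the 11 and 4 of the 6. Where a form has almost no counts, the ratio with 0.5 added follows the level of the gene itself. With only events whose rarer form had at least 10 counts over the 6 libraries, a filter chosen after seeing the data, 11 of 92 events passed in fasted and 3 of 86 in refed liver. Over all genes, 7902 of 31011 events passed under that filter in fasted and 964 of 29988 in refed liver. Of the 11 and 6 events called without that filter, 1 in fasted and 2 in refed liver reached a difference in inclusion of at least 0.1. The 11 fasted events include several overlapping forms of the same Abcg5 exon. These forms share their skipping reads, which numbered 0, 0 and 0 in Lpin1+/+ and 6, 2 and 8 in Lpin1-/- liver. They are therefore not separate observations.

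The largest difference among the called events was in Abca1. Its coding exon of 106 bases (chromosome 4, 53059257 to 53059362, minus strand), whose length is no multiple of 3, was skipped in no read of the fasted Lpin1+/+ libraries, with 382, 95 and 110 including counts. In fasted Lpin1-/- liver 50, 125 and 227 counts included it and 24, 27 and 34 skipped it, an inclusion of 0.449, 0.644 and 0.723 (adjusted p = 0.000802, passed in all 10 alternatives). The Abcg8 coding exon of 81 bases (chromosome 17, 84695242 to 84695322, plus strand) had an inclusion of 0.996, 1.000 and 1.000 in Lpin1+/+ and 0.921, 0.963 and 0.955 in Lpin1-/- (adjusted p = 0.00314, passed in all 10). A coding exon of Soat2 of 137 bases (chromosome 15, 102153148 to 102153284, plus strand) fell from 0.986, 0.971 and 0.994 to 0.885, 0.891 and 0.945 (adjusted p = 0.0431, passed in 5 of 10). The other fasted events named by size were a stretch of 64 bases between annotated exons of Hmgcs1 that matches no exon (mean inclusion 0 and 0.0588), a coding exon of Hsd17b7 (0.974 and 1) and an Abcg5 exon with an unannotated end (1 and 0.978), each with a rarer form of under 3 counts a library on average.

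In refed liver the same Soat2 exon, joined to a farther downstream exon, had an inclusion of 1.000, 0.989 and 0.971 in Lpin1+/+ and 0.823, 0.836 and 0.868 in Lpin1-/- (adjusted p = 0.0356). The neighbouring coding exon of 108 bases (chromosome 15, 102154261 to 102154368) had 1.000, 0.987 and 0.964 against 0.810, 0.793 and 0.818 (adjusted p = 0.0322). Both events share their skipping reads, which numbered 0, 1 and 3 in Lpin1+/+ and 11, 11 and 8 in Lpin1-/-. These and a stretch of Scap that matches no annotated exon (mean inclusion 0 and 0.0208) were the 3 left by the filter on the rarer form. The remaining calls, a stretch of 16 bases of Hmgcs1 and a pair of overlapping exons of Idi1, cannot be read as exon use, because the rarer form had 2 counts in all for Hmgcs1 and 1 for Idi1. The common form fell with the level of the gene, from 958, 627 and 643 to 57, 27 and 29 including counts for the shorter Idi1 exon. No refed event passed in limma when any library was left out, with 31 to 44 of the 197 or 198 events tested then at an unadjusted p under 0.05.

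**Figure D5:**
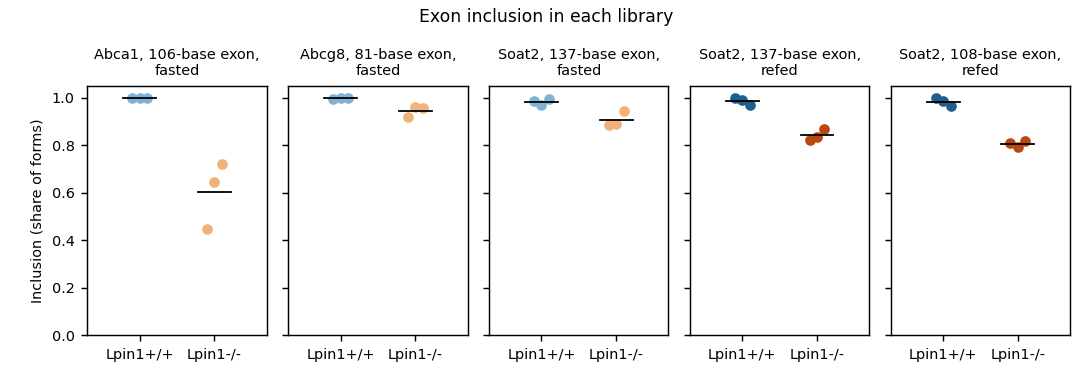
Points are the inclusion of an exon in single libraries, as a share from 0 to 1, and lines are means of 3, for Lpin1+/+ and Lpin1-/- liver. The Abca1 exon falls from 1.000 in all fasted Lpin1+/+ libraries to between 0.449 and 0.723 in fasted Lpin1-/- libraries, and the Soat2 exons are lower in every Lpin1-/- library shown.

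The same comparisons were read for neighbouring pathways, listed by role. Over all genes tested 1.52% rose on refeeding in Lpin1+/+ and 17.8% in Lpin1-/- liver, and 13.2% were lower in Lpin1-/- fasted and 4.07% refed, so that 2 of 11 genes risen in Lpin1-/- liver or lower in fasted Lpin1-/- liver is a share near that of all genes. Of 11 genes of the nonsterol branch of the mevalonate route, which makes dolichol, ubiquinone and prenyl groups, 1 rose on refeeding in Lpin1+/+ liver (Nus1, 0.75 ± 0.17, adjusted p = 0.0483) and 5 rose in Lpin1-/- liver (Rabggta, 0.79 ± 0.21, adjusted p = 0.0229, the largest). Of the same 11 genes 2 were lower in Lpin1-/- in fasted liver (Pdss2, −1.16 ± 0.22, adjusted p = 0.00538) and 2 in refed liver (Dhdds, −0.82 ± 0.19, adjusted p = 0.0276). Of 11 genes of SREBP processing and sterol sensing, none passed for refeeding in Lpin1+/+ (limma, 3 at an unadjusted p under 0.05) and 3 were lower in fasted Lpin1-/- liver (Erlin1, −0.88 ± 0.23, adjusted p = 0.0197, the largest). In refed liver Insig2 was higher and Erlin1 lower. Of 11 tested genes of cholesterol uptake and transport, none passed in Lpin1+/+ (limma, 2 unadjusted), 2 rose in Lpin1-/- on refeeding (Osbp, 1.12 ± 0.36, adjusted p = 0.0485), and in fasted liver 1 was higher and 1 lower in Lpin1-/- (Lipa, the lysosomal cholesteryl ester hydrolase, −1.50 ± 0.19, adjusted p = 0.000663), with none called by genotype in refed liver (limma, 2 unadjusted). Of 6 further LXR genes, Nr1h3, which encodes LXR itself, was lower in fasted Lpin1-/- liver (−0.86 ± 0.25, adjusted p = 0.0364) and was the only call of the list in the 5 comparisons (limma; 2, 2, 1 and 1 genes at an unadjusted p under 0.05 in the others).

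Of 9 fatty acid synthesis genes tested, which SREBP-1c is known to drive, 3 rose on refeeding in Lpin1-/- (Acaca, acetyl-CoA carboxylase, 2.16 ± 0.31, adjusted p = 0.00146, with Elovl6 and Fasn) and 1 in Lpin1+/+ (Thrsp, 2.68 ± 0.58, adjusted p = 0.045). By genotype, 2 were higher and 1 lower in fasted Lpin1-/- liver, and 1 was higher and 1 lower in refed Lpin1-/- liver. Thrsp was higher in fasted Lpin1-/- liver (457, 565 and 229 RPKM, against 13.8, 31.9 and 25.6 RPKM). Scd1 was higher in Lpin1-/- liver in both states (limma, 2.76 ± 0.78 fasted, adjusted p = 0.0295, and 3.77 ± 0.78 refed, adjusted p = 0.0172). It measured 311, 775 and 468 RPKM against 177, 39.2 and 50.3 RPKM fasted, and 969, 367 and 379 RPKM against 9.80, 51.1 and 94.3 RPKM refed. Of the sterol genes, 15 were lower in refed Lpin1-/- liver, and 3 were lower and 1 higher in fasted Lpin1-/- liver. None of these lists passed for any gene when both responses to refeeding were compared (limma; 3, 1, 3, 1 and 2 genes at an unadjusted p under 0.05, in the order above). Of 6 bile acid synthesis genes, 2 were lower in fasted Lpin1-/- liver, Hsd3b7 and Cyp7a1, the rate-limiting enzyme of the classic route (4.77, 1.56 and 24.2 RPKM, against 128, 32.7 and 45.8 RPKM; −3.03 ± 0.74, adjusted p = 0.0163), and no gene of that list passed in the other 4 comparisons (limma; 0, 1, 3 and 2 genes at an unadjusted p under 0.05).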

How the data were processed

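Liver RNA-Seq of 12 mice, 3 in each of 4 groups of genotype and feeding state taken from the labels, was analysed from the deposited tables. Per the labels, libraries were made with a stranded kit and sequenced as 69 bp paired ends; per the submitters' processing notes and the methods, reads were aligned to GRCm38 with HISAT2 2.0.5 and counted with HTSeq 0.6.0, and the authors deposited RPKM per gene. The strand setting of the counting is not given in the sources used here. The steps between low values put the libraries at 0.866 to 1.16 times the depth of the first. The labels call the libraries of a group biological replicates, and 3 mice a group limit the precision. The authors also deposited junction counts of skipped exon events from rMATS, with their own inclusion levels, inclusion differences and p-values, which were not used.

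RPKM was analysed as log2(RPKM + 1), keeping 11507 genes that averaged 0.5 RPKM or more, with limma 3.58.1 (R 4.3.3; 4 group means, variance trend, Benjamini-Hochberg adjustment, threshold of 0.05), so a fold change understates that of low genes and ± is the standard error. All 30 sterol genes passed the filter. Exon events with at least 10 counts in each library were tested with limma on log2 of the including over the skipping count, 0.5 added, each divided by its form length. The genotype lists of the exon tables carry no sample name; in each feeding state the first list held the counts of the wild-type table in all 1523 fasted and 1719 refed shared events and the second in none. Both tests were tried on simulated data. Positions came from GENCODE vM21. Alternatives were other added values, filters, scaling, a replicate block, fewer libraries, no variance trend, each library left out and, chosen after seeing the data, a minimum of 10 counts of the rarer exon form. All 30 genes are named by role, of the other lists the called gene with the largest change per list and comparison, and of exon events all called ones, or the 6 largest where over 10 were called. Members and lists were chosen with earlier results of these data known. A result of the sterol sensing list is not reported here. Figures were drawn with matplotlib 3.10.9.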

Additional observations from a re-analysis of the deposited data

Results flagged for a closer look

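For 6 of the sterol genes the 2 genotypes responded differently to refeeding, by a limma test of that contrast adjusted over 11507 genes. As log2 differences, Lpin1-/- minus Lpin1+/+, they were −4.81 for Insig1, −4.23 for Msmo1, −3.66 for Cyp51, −3.43 for Fdps, −2.28 for Mvd and −1.88 for Fdft1. The groups of 3 libraries were too small to be screened for outlying samples. Fasted Lpin1-/- replicate 1, the library with high macrophage and cholangiocyte markers, was the highest of its group for all 6 of these genes, and without it Insig1, Msmo1 and Mvd still passed; the part of those markers was not tested.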

How the results depend on the processing

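For single genes, 2692 of 2899 values under an alternative kept their side of the threshold, 145 no longer passed, 62 passed only then, and no called value changed sign. Values that passed in neither fit could change sign and are among the 2692. Sqle on refeeding in Lpin1-/- liver, for instance, went from −0.96 to 0.28 without fasted Lpin1-/- replicate 1. Members called for refeeding in Lpin1+/+ liver numbered 10, against 6 with no filter on low values, 5 with rescaled libraries, 0 in the limma fit to 6 libraries (19 at an unadjusted p under 0.05) and 1 to 15 with a library left out. In Lpin1-/- liver they numbered 5, against 2 with no filter and 2 to 6 with a library left out. By genotype in refed liver they numbered 15, against 9 to 18 with a library left out. For the difference between responses they numbered 6, against 3 with no filter, 9 with rescaled libraries and 2 to 7 with a library left out. By genotype in fasted liver every alternative gave 3 to 6, against 4. With the replicate number as a block the counts were 8, 4, 6, 16 and 7 for refeeding in Lpin1+/+, refeeding in Lpin1-/-, genotype fasted, genotype refed and the difference between responses. Same-numbered libraries of different groups deviated together with a median correlation of 0.03 over 18 pairs (−0.47 to 0.74), against −0.05 over 36 other pairs, so the numbers were not read as pairs. Exon events called numbered 11 in fasted liver, against 2 to 13 with a library left out, and 6 in refed liver, against 11 with 1 added to each count, 3 when the scarcer form needed 10 counts (a filter added once the data had been seen) and 0 to 0 in limma with a library left out (31 to 44 unadjusted). No paired analysis was possible for exon events because their count lists carry no replicate numbers. Over all 11507 genes, calls for refeeding in Lpin1+/+ liver went from 198 to 76 after rescaling, 93 with the block and 0 in limma on the 6 libraries, those by genotype in fasted liver from 2168 to 1011 on the 6 libraries, and those for the difference between responses from 147 to 306 after rescaling, 81 with the block and 83 with no filter. With a library left out, the lowest counts over all genes were 23, 1122, 1037, 242 and 30 in the order above. The cause of these changes was not tested. Gene counts were not used here, so counting error could not be separated from the spread between mice.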
